A study of Mus musculus with 8 samples.

Results

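The mouse line J774.1, macrophage-like and derived from the BALB/c strain, was compared after 6 h in 10 µM isorhamnetin with control cells of the same line. The comparison rests on 4 of the 8 arrays of the series, chosen by their treatment labels: 2 control arrays and 2 isorhamnetin arrays. The other 4 are 2 arrays of cells given 10 µM tamarixetin and 2 of cells given 1 µM Torin1, both also for 6 h, and they serve here for the shared estimate of the spread and for values set beside those of isorhamnetin. Total RNA was labelled with Cy3 and hybridised to Agilent 1-colour arrays. The design text calls the 2 samples of a group biological replicates of this single cell line. The sources used here do not say whether control cells received the solvent of the compounds or whether any cells were stimulated.

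Both isorhamnetin and its isomer tamarixetin belong to the plant flavonols and are O-methyl ethers of quercetin that carry the methyl group on neighbouring hydroxyls of the B ring. Torin1 is an inhibitor of the kinase mTOR. A major system by which cells answer electrophilic and oxidising molecules, quinones formed from polyphenols among them, is the KEAP1-NRF2 pathway. KEAP1 holds the transcription factor NRF2 (gene Nfe2l2) for degradation, and when its cysteines are modified NRF2 accumulates, pairs with small MAF proteins and binds antioxidant response elements (AREs) in genes for glutathione synthesis, quinone reduction, haem breakdown and NADPH supply. BACH1 occupies the same elements as a repressor. Macrophages also keep a low tone of type I interferon signalling, which acts on target genes through interferon-stimulated response elements (ISREs).

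The sequences that follow show where the letters of these 2 kinds of element lie in panel genes chosen for holding a match. Isg15, among them, did not pass the test reported below. They come from RefSeq promoter windows of assembly GRCm38.p6, from 250 bases before to 50 bases after the annotated start, and are written on the strand of the gene. The 250 bases before the start are printed, in lower case with each match in capitals. Matches to TGACNNNGC, the ARE core, on either strand:
Gclm, chr3:122245307-122245556, plus strand: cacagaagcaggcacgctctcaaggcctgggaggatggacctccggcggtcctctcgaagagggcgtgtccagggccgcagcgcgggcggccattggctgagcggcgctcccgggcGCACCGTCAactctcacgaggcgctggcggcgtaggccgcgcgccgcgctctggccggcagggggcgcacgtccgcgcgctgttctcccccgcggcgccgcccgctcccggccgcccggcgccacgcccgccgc
Txnrd1, chr10:82858956-82859205, plus strand: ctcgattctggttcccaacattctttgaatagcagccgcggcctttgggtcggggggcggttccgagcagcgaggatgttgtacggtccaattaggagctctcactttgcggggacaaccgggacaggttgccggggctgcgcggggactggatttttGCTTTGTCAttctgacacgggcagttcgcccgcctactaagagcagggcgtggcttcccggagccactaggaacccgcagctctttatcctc
Matches to the ISRE core, GAAA, any 2 bases and GAAA again, on either strand:
Isg15, chr4:156200819-156201068, minus strand: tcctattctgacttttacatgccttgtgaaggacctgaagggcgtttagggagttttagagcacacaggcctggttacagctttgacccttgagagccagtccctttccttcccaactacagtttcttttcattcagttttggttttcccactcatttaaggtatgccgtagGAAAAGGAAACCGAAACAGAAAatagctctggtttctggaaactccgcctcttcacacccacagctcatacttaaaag
Fcgr4, chr1:171018676-171018925, plus strand: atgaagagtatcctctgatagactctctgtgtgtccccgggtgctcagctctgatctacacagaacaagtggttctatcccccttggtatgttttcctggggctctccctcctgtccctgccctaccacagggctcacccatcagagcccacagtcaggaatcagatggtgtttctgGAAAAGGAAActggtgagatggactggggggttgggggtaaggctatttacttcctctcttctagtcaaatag
The match in Gclm began 134 bases before the start and read GCACCGTCA, and that in Txnrd1 began 92 bases before the start and read GCTTTGTCA, both on the opposite strand. Isg15 held 3 overlapping matches, beginning 78, 72 and 66 bases before the start, and Fcgr4 held GAAAAGGAAA 73 bases before it. Srxn1 held GCTAGGTCA beginning 28 bases after its start, and Ddx58, the gene of the RNA sensor RIG-I, held TTTCGATTTC beginning 2 bases after it. TGACNNNGC was found in 12.4% of all 32851 windows and the ISRE core in 3.44%. By gene, 14.0% of the 27025 genes with a window and 16.4% of the tested genes held an ARE core, against 10 of 48 genes with a window that rose with isorhamnetin and 4 of 10 of the antioxidant and haem genes that rose. An ISRE core was held by 3.99% of genes with a window, by 5 of 13 genes that fell and by 16 of 42 measured genes of the interferon lists. Matches also lay in genes that did not pass, such as Nfe2l2 and Prdx1 for the ARE core and Oas1a and B2m for the ISRE core. These letters are a description of the windows and not evidence of binding.

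More genes were higher than lower with isorhamnetin, and among named genes well above background on all 4 arrays the largest rises were in cystine uptake (Slc7a11), glutathione synthesis (Gclm) and haem breakdown (Hmox1). The RNA is that of whole cultures, so a change in every cell and a change in a fraction of the cells cannot be told apart. Levels are log2 signals from which the 75th percentile of the array was subtracted, so that a difference of 1 is a 2-fold change. Of 21528 genes tested with limma over all 8 arrays, 119 passed a Benjamini-Hochberg adjusted p of 0.05. They comprised 92 genes that were higher, 0.427% of the genes tested, and 27 that were lower, 0.125%. Of the 96 called genes that were well above background on all 4 arrays, 73 were higher and 23 lower, among them 11 that rose and 3 that fell by at least 2-fold. In all 119 the control and isorhamnetin arrays did not overlap, a separation shown by 26.1% of all tested genes in the higher and 23.7% in the lower direction. The number of calls moved with each array: it was 5 without control replicate 1, 10 without control replicate 2, 18 and 15 without isorhamnetin replicates 1 and 2, 71 without either tamarixetin array and 5 without either Torin1 array. With only the 4 control and isorhamnetin arrays in the fit no gene passed, while 3138 had an unadjusted p under 0.05.

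**Figure D1:**
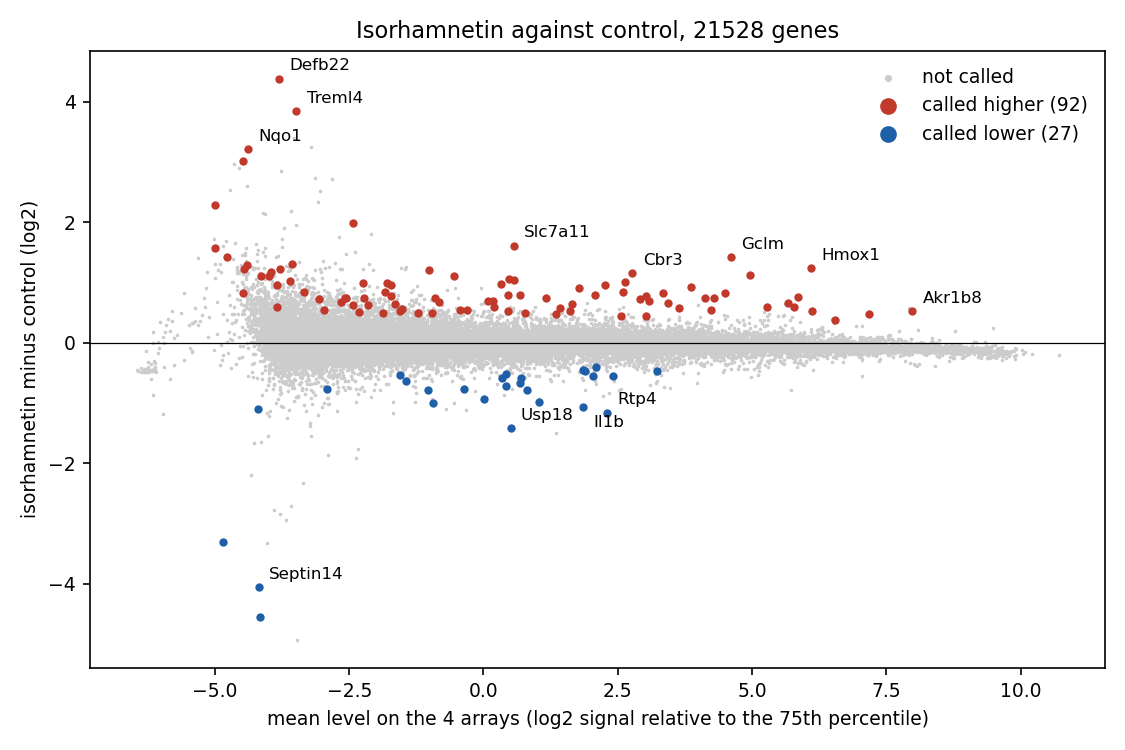
Each point is 1 of 21528 genes, with its mean level over the 4 arrays (log2 signal relative to the 75th percentile) on the horizontal axis and isorhamnetin minus control (log2) on the vertical axis; red and blue points are the 92 genes called higher and the 27 called lower. Slc7a11, Gclm and Hmox1 lie at 1.61, 1.42 and 1.24, and Usp18 and Il1b at -1.42 and -1.06, while the differences beyond 3 in either direction are all at the dim end.

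The 75th percentile of the signal lay between 318 and 384 units on the 4 arrays, and replicates correlated at 0.997 in both groups. Probes well above background made up 46.8% and 46.5% on the control arrays and 49.1% and 52.1% on the isorhamnetin arrays, so both isorhamnetin arrays lay above both control arrays, and the part of this in the excess of higher calls was not tested. Of 16 macrophage identity genes, 12 were well above background on all 4 arrays, among them Csf1r, Cd68, Lyz1 and Adgre1, and their summed level was 870 and 924 times the 75th percentile on the control arrays and 911 and 785 on the isorhamnetin arrays. Mertk and Vsig4 were not well above background on any of the 4. Summed levels of T, B and NK cell, neutrophil, mast cell, fibroblast, epithelial, endothelial and erythroid markers were at most 4.79 times the 75th percentile on every array. Some single markers were expressed: 3 of 7 T cell markers, Lck and Cd5 among them, were well above background on all 4 arrays. The dendritic cell list reached 198 to 247, through Siglech alone. All 8 arrays shared 1 slide, on which control held columns 1 and 2 and isorhamnetin columns 3 and 4 of row 1, and tamarixetin and Torin1 held row 2, so position on the slide and group cannot be told apart.

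The regulators of the NRF2 pathway showed no called change in their own mRNA. None of 8 measured genes passed, and their median difference was 0.01, against 0 over all genes tested. Nfe2l2, which encodes NRF2 itself, read 3.83 and 3.85 on the control arrays and 3.89 and 3.89 on the isorhamnetin arrays, a difference of 0.06 (95% interval -0.10 to 0.22, adjusted p = 0.72). Keap1 differed by -0.06 (adjusted p = 0.597) and Bach1 by 0.03 (adjusted p = 0.923). Mafg, a small MAF partner of NRF2, had 5.47 and 5.60 in control and 5.87 and 5.93 with isorhamnetin, a difference of 0.37 that did not pass (adjusted p = 0.0915).

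Genes that bring in cystine and turn it into glutathione rose. Of 19 measured members of this list 5 rose and none fell, with a median difference of 0.24. Over all genes tested 0.427% rose and 0.125% fell, shares that also stand beside the list counts below. Slc7a11, the cystine-glutamate exchanger, read -0.29 and -0.20 on the control arrays and 1.39 and 1.34 on the isorhamnetin arrays. Its difference was 1.61 ± 0.0574 (SE, n = 2 arrays per group), a 3.05-fold rise (adjusted p = 0.0044), and a second probe of the gene gave 1.77. Gclm, which encodes the modifier subunit of the ligase that joins glutamate and cysteine, read 3.93 and 3.86 in control and 5.29 and 5.33 with isorhamnetin. Its rise was 1.42 ± 0.0545, or 2.67-fold (adjusted p = 0.0044). Among the 62 called genes named here by symbol, only Slc7a11 and Gclm stayed called whichever of the 8 arrays was left out.

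The other 3 called members rose by less. Gclc, the catalytic subunit of the same ligase, went from 2.57 and 2.56 to 3.24 and 3.32, a rise of 0.72 ± 0.0581 (adjusted p = 0.0174). Gsr, which reduces oxidised glutathione, read 4.94 and 5.02 in control and 5.58 and 5.55 with isorhamnetin and rose by 0.59 (adjusted p = 0.0245). Abcc1, an exporter of glutathione conjugates, rose by 0.45 (adjusted p = 0.0334), with both control arrays at 2.34 and the isorhamnetin arrays at 2.77 and 2.81, and lost its call after normexp background correction (0.37, adjusted p = 0.0739). In all 5 genes both isorhamnetin arrays lay above both control arrays. Every gene called higher showed this separation, and so did 26.1% of all tested genes, so it adds no support to the calls. Gpx1, a glutathione peroxidase, was not among the 5 and differed by -0.21 (adjusted p = 0.135). Mgst2, a microsomal glutathione transferase named after its values were seen, differed by 0.37 (adjusted p = 0.0821).

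The second group was a list of enzymes that reduce quinones, carbonyls and thiols, which also holds the catalase Cat. Of 21 measured members 6 were called higher and none lower, with a median of 0.10, and 5 of the 6 were well above background on all 4 arrays. The other, Nqo1, entered the test only through the isorhamnetin arrays. Cbr3, a carbonyl reductase, read 2.16 and 2.25 in control and 3.36 and 3.34 with isorhamnetin, a rise of 1.15 ± 0.0773 (adjusted p = 0.014). Srxn1, sulfiredoxin, which repairs overoxidised peroxiredoxins, read 4.28 and 4.55 in control and 5.58 and 5.48 with isorhamnetin, a rise of 1.12 ± 0.0988 (adjusted p = 0.0203). Cat, the catalase that splits hydrogen peroxide, went from 2.16 and 2.12 to 3.17 and 3.11, a rise of 1.00 ± 0.0816 (adjusted p = 0.0176). In each of the 3 genes the lower isorhamnetin array was above the higher control array by more than the replicates of either group differed. The genes were picked by their call, so this gap adds no support to it.

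Txnrd1, the cytosolic thioredoxin reductase, rose by 0.59 (adjusted p = 0.0203), from 5.46 and 5.51 to 6.09 and 6.07. Akr1b8, an aldo-keto reductase, read 7.72 on both control arrays and 8.29 and 8.20 with isorhamnetin, a rise of 0.52 (adjusted p = 0.04). Nqo1, the quinone reductase most often used as a readout of NRF2, was not well above background on either control array, where it read -5.87 and -6.10, and was well above background on both isorhamnetin arrays at -2.95 and -2.61. It was therefore at least 2.21-fold higher, the isorhamnetin mean against the dimmest signal called well above background on the control arrays (adjusted p = 0.0099 in the fit). Since the filter kept it only through the group where it is high, that p is a description and not a test of its own. After normexp background correction its difference was 0.52, a smaller change than 2.21-fold, and did not pass (adjusted p = 0.0829). The value of at least 2.21-fold thus refers to the deposited signal only. Prdx1, a peroxiredoxin, differed by 0.08 and did not pass (adjusted p = 0.546). Ptgr1 and Osgin1, named after their values were seen, had 0.57 (adjusted p = 0.055) and 0.49 (adjusted p = 0.138).

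The haem breakdown and transport genes rose together with them. Of 20 measured haem and iron genes 3 rose and none fell, with a median of 0.16. Hmox1, haem oxygenase 1, which opens the haem ring to biliverdin, read 5.54 and 5.41 in control and 6.70 and 6.72 with isorhamnetin. The rise was 1.24 ± 0.107, or 2.36-fold (adjusted p = 0.0192). Slc48a1, which carries haem from the lysosome to the cytosol, went from 3.39 and 3.41 to 4.38 and 4.29, a rise of 0.93 ± 0.0547 (adjusted p = 0.014). Blvrb, a biliverdin reductase, went from 3.89 and 3.94 to 4.70 and 4.63, a rise of 0.74 ± 0.0588 (adjusted p = 0.0164).

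Ferritin mRNA did not show a called change: Ftl1 differed by 0.24 (adjusted p = 0.406) and Fth1 by -0.08 (adjusted p = 0.792), the sign of Fth1 turning under quantile normalization. A second, dimmer probe of Ftl1, which was not tested on its own, gave 0.59. Slc40a1, the iron exporter ferroportin, named after its values were seen, was not well above background on the control arrays (-4.15 and -6.22), read -3.39 and -2.65 with isorhamnetin, and did not pass (adjusted p = 0.221). For NADPH supply, 1 of 10 pentose phosphate and related genes rose, with a median of 0.06. This was Pgd, 6-phosphogluconate dehydrogenase, at 5.87 and 5.82 in control and 6.41 and 6.34 with isorhamnetin, a rise of 0.53 (adjusted p = 0.0281). G6pdx, the dehydrogenase that opens the pathway, had 0.42 (adjusted p = 0.0662), while Taldo1, of the non-oxidative branch, had 0.07 (adjusted p = 0.66). Of the 15 called genes in these 4 lists, Nqo1 included, 2 passed without either control array, 3 and 4 without isorhamnetin replicates 1 and 2, 10 without a tamarixetin array and 3 without a Torin1 array. The lists were written with earlier results of these data known, so their counts are no independent evidence of a direction.

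**Figure D2:**
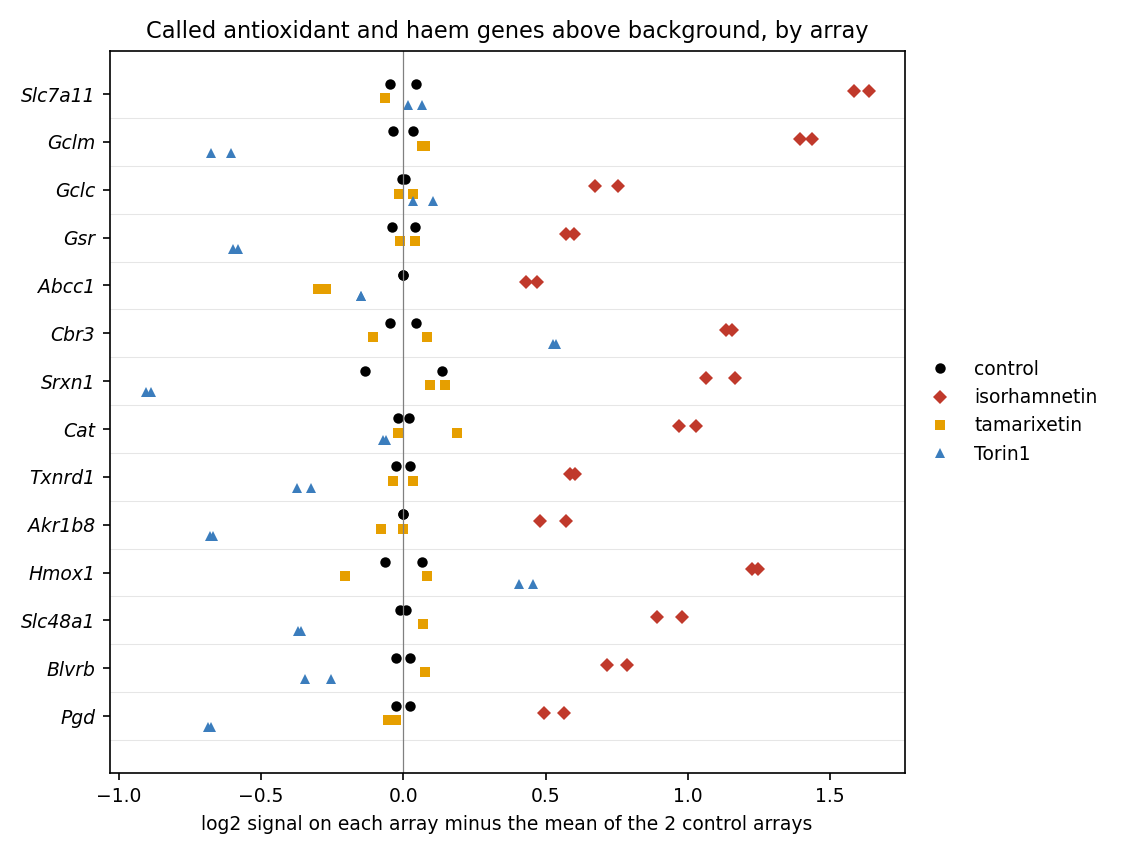
For 14 called antioxidant and haem genes, each symbol is 1 array, placed at its log2 signal minus the mean of the 2 control arrays; circles are control, diamonds isorhamnetin, squares tamarixetin and triangles Torin1. In every gene, as in all genes called higher, the isorhamnetin arrays lie right of both control arrays. Their average runs from 0.45 for Abcc1 to 1.61 for Slc7a11, while tamarixetin lies near 0 in most.

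Of 12 measured regulators of the ATF4 stress programme 1 rose, against 0.427% of all genes tested. This programme answers amino acid shortage and also acts on Slc7a11. The regulators had a median of 0.12, and in 7 of them both isorhamnetin arrays read above both control arrays. In 1 both read below. Over all genes tested these shares were 26.1% and 23.7%. Atf3 read -0.09 on both control arrays and 0.44 and 0.56 with isorhamnetin, a rise of 0.59 (adjusted p = 0.041). Atf4 itself differed by 0.03 (adjusted p = 0.866) and Ddit4, induced by many stresses, by 0.08 (adjusted p = 0.788). Trib3, a target of the pathway, had 3.37 and 3.41 in control and 4.0 and 3.93 with isorhamnetin, and its difference of 0.57 did not pass (adjusted p = 0.11).

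Of 17 measured genes of amino acid synthesis and transport 1 rose, with a median of 0.09. Slc6a9, a transporter of glycine, which is a building block of glutathione, read 2.74 and 2.72 in control and 3.49 and 3.37 with isorhamnetin, a rise of 0.70 (adjusted p = 0.0191). Asns, asparagine synthetase, differed by 0.10 (adjusted p = 0.557). None of 20 cytosolic tRNA synthetases passed, with a median of 0.06. Cth and Chac1, which make cysteine and degrade glutathione and were named after their values were seen, had 0.52 (adjusted p = 0.0662) and 0.42 (adjusted p = 0.215).

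Interferon-stimulated genes formed the main group that fell. Of 28 measured effectors 5 fell and none rose, against 0.125% lower over all genes tested, with a median of -0.40. In 24 of the 28 both isorhamnetin arrays read below both control arrays, and in 2 above. Over all genes tested these shares were 23.7% and 26.1%. This list too was written with earlier results of these data known, so its counts are no independent evidence. Usp18, which removes ISG15 from proteins and restrains the interferon receptor, read 1.12 and 1.31 in control and -0.30 and -0.12 with isorhamnetin. It fell by 1.42 ± 0.106 on the log2 scale, 2.68-fold (adjusted p = 0.0153). Rtp4, an interferon-induced chaperone of receptors, went from 2.77 and 2.97 to 1.74 and 1.69 and fell by 1.16 ± 0.103 (adjusted p = 0.0203). Oas3, which makes the oligoadenylates that activate RNase L, went from -0.47 and -0.41 to -1.43 and -1.44 and fell by 1.00 ± 0.0899 (adjusted p = 0.0203).

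Ifi204, a DNA-binding interferon-induced protein, read 1.17 and 1.25 in control and 0.45 and 0.40 with isorhamnetin and fell by 0.79 (adjusted p = 0.0158). Parp14, an ADP-ribosyltransferase, fell by 0.71 (adjusted p = 0.0391), from 0.70 and 0.84 to 0.04 and 0.07. Isg15, the ubiquitin-like modifier, read 2.35 and 2.52 in control and 1.81 and 1.70 with isorhamnetin, so the groups did not overlap, and its difference of -0.68 missed the threshold (adjusted p = 0.0505). Irgm2, an interferon-induced GTPase outside the list, fell by 0.77 (adjusted p = 0.0402), and Apol9a, an interferon-induced apolipoprotein L, by 0.63 (adjusted p = 0.0428). Members of the list with the highest control levels moved little by their brightest probes: Oas1a differed by -0.07, Ifi27l2a by -0.12 and Ly6e by -0.18, none called. A second, dimmer probe of Ifi27l2a gave -0.45. Ifi204, Apol9a and Irgm2 have close relatives in the mouse genome, whose transcripts their probes may also bind.

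The sensors and signalling factors of the same pathway showed 1 called change among 26 measured genes, with a median of -0.12. Ddx58, whose product RIG-I detects viral RNA, read 1.48 and 1.60 in control and 0.58 and 0.51 with isorhamnetin and fell by 0.99 ± 0.0844 (adjusted p = 0.0191), and a second probe gave -1.15. Irf7, Irf9 and Xaf1, named after their values were seen, had differences of -0.67, -0.43 and -0.80 (adjusted p = 0.0877, 0.06 and 0.109). Cgas, the DNA sensor, differed by -0.17 (adjusted p = 0.278). Usp18, Rtp4, Oas3, Ifi204 and Ddx58 passed without either tamarixetin array, at adjusted p up to 0.0426, but did not pass when any control, isorhamnetin or Torin1 array was left out, where the highest adjusted p among them was 0.152. Parp14, Irgm2 and Apol9a passed in none of the 8 fits that left out 1 array, with lowest adjusted p of 0.0637, 0.0535 and 0.0659. After normexp Parp14 had -0.51 (adjusted p = 0.0876) and Apol9a -0.38 (adjusted p = 0.074), so both lost their call.

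**Figure D3:**
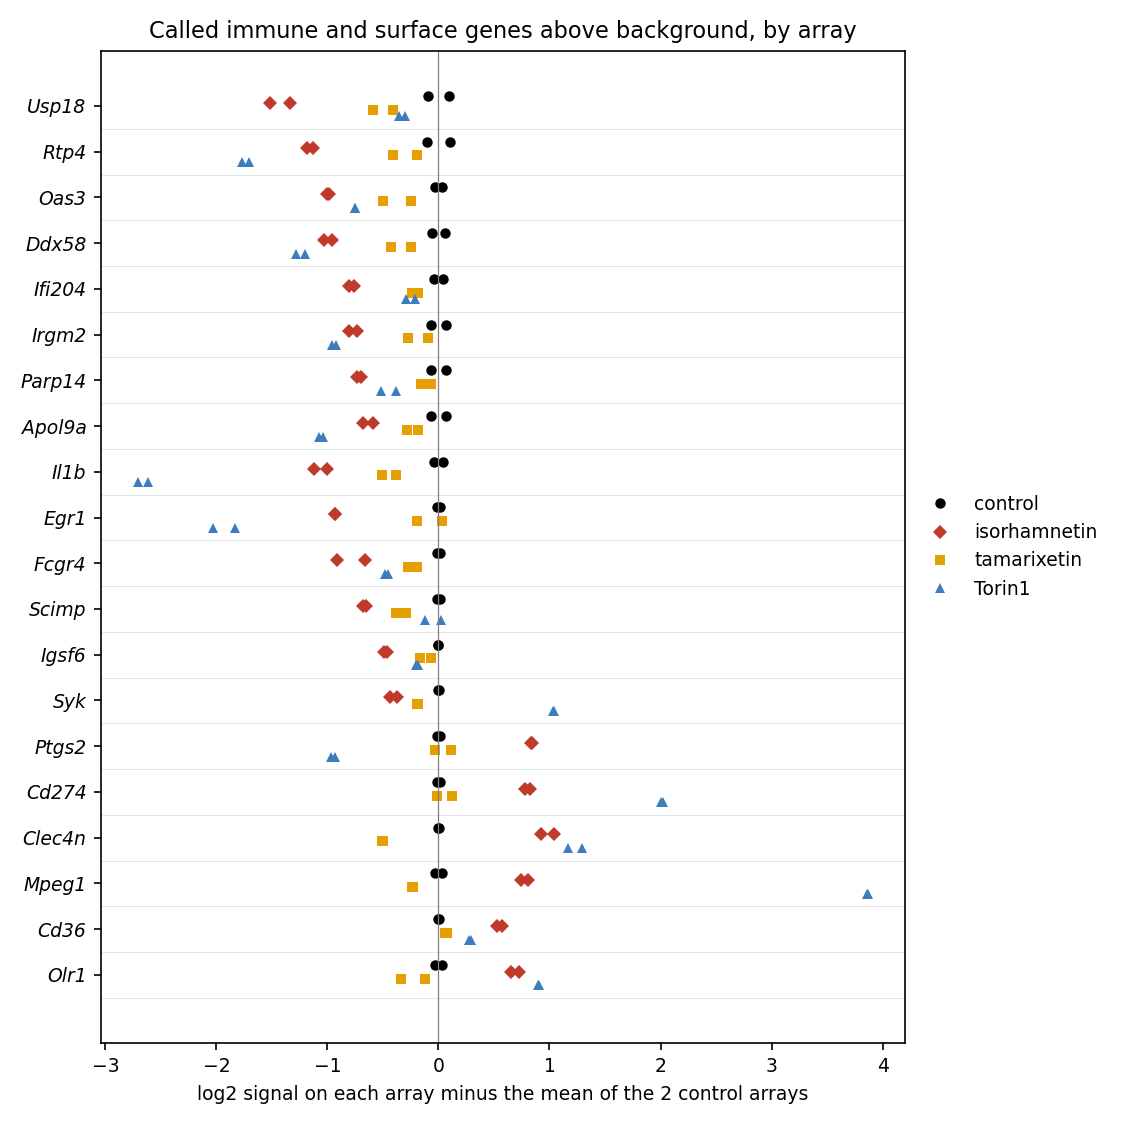
For 20 called immune and surface genes, each symbol is 1 array, placed at its log2 signal minus the mean of the 2 control arrays, with the same symbols for the 4 groups. From top to bottom, isorhamnetin lies left of control from Usp18 (-1.42) to Syk (-0.41) and right of it from Ptgs2 (0.84) to Olr1 (0.69). The largest rise is that of Clec4n (0.99) and the smallest that of Cd36 (0.55). Torin1 lies on the opposite side from isorhamnetin in Syk and Ptgs2.

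Inflammatory transcripts moved in both directions. Il1b, the interleukin-1 beta precursor, read 2.42 and 2.34 in control and 1.38 and 1.26 with isorhamnetin. It fell by 1.06 ± 0.0781, or 2.08-fold (adjusted p = 0.0152), and was the called gene among 15 measured genes of interleukin-1 and the inflammasome, whose median was -0.19. Casp1, which cleaves the precursor, and Gsdmd, whose product forms the pore for its release, differed by 0.14 and -0.19 and did not pass. Ptgs2, the inducible cyclooxygenase, moved the other way, from 2.20 and 2.17 to 3.02 and 3.03, a rise of 0.84 ± 0.0665 (adjusted p = 0.0164). It was the called gene among 21 inflammatory mediators, whose median was -0.16. Tnf had 5.69 and 5.60 in control and 5.38 and 5.48 with isorhamnetin, and its difference of -0.22 did not pass (adjusted p = 0.322).

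Ptgir, the receptor for prostacyclin, a product downstream of cyclooxygenase, read 0.01 and 0.11 in control and 0.87 and 0.85 with isorhamnetin and rose by 0.80 (adjusted p = 0.0191). Cd274, which encodes the checkpoint ligand PD-L1, went from 0.27 and 0.30 to 1.06 and 1.11, a rise of 0.80 ± 0.0637 (adjusted p = 0.0164), and was the called gene among 17 of costimulation and antigen presentation, whose median was -0.10. H2-K1 and B2m, of class I presentation, differed by -0.04 and -0.16. Csf3 and Cxcl2, named after their values were seen, had -0.68 (adjusted p = 0.0542) and -0.42 (adjusted p = 0.0615).

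Of 24 measured immediate early factors, transcribed within minutes of a stimulus, 1 fell and none rose, with a median of -0.15. Egr1 read 0.47 and 0.49 in control and -0.45 on both isorhamnetin arrays and fell by 0.93 ± 0.099 (adjusted p = 0.0338). Junb and Jund differed by -0.16 and -0.18. Klf4, Myc and Klf2, named after their values were seen, had 0.55, 0.56 and -0.37 and did not pass (adjusted p = 0.0547, 0.0623 and 0.0672). None of 20 NF-kB subunits and inhibitors passed (median -0.05), with Nfkbia, the NF-kB inhibitor, at -0.17, and none of 14 chemokine genes (median -0.12), 14 MAP kinase feedback genes (median -0.07) or 21 Toll-like receptor genes (median -0.07).

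Receptors that myeloid cells use to bind antibody and glycans also split. Among 18 measured Fc receptors and lectins 1 rose and 1 fell, with a median of 0.10. Clec4n, which encodes dectin-2, a receptor for fungal mannans, read -2.30 and -2.29 in control and -1.25 and -1.37 with isorhamnetin, a rise of 0.99 ± 0.071 (adjusted p = 0.014). Fcgr4, an activating receptor for IgG, went from -0.66 and -0.64 to -1.31 and -1.56 and fell by 0.78 ± 0.0907 (adjusted p = 0.0413). Syk, the kinase that acts after such receptors, read 2.29 and 2.30 in control and 1.92 and 1.86 with isorhamnetin and fell by 0.41 (adjusted p = 0.0455), while their adaptor Fcer1g differed by -0.16 (adjusted p = 0.3). Under normexp background correction the change of Clec4n was 0.55 and that of Fcgr4 was -0.46, both still called, while Syk had -0.33 and did not pass (adjusted p = 0.074).

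Scimp, a transmembrane adaptor of Toll-like receptors, fell by 0.67 (adjusted p = 0.0313), from 1.01 and 1.03 to 0.37 and 0.34, and Igsf6, an immunoglobulin-like surface protein, by 0.47 (adjusted p = 0.0434). Mpeg1, the pore-forming protein perforin-2 of phagocytes, went from 2.61 and 2.67 to 3.45 and 3.38, a rise of 0.77 (adjusted p = 0.014). Clec4b1, a lectin beside Clec4n in the same gene cluster and named after its values were seen, rose by 0.65 (adjusted p = 0.022). Stab1, a scavenger receptor and the called gene among 5 measured genes of alternative activation, rose by 0.63 (adjusted p = 0.0203). After normexp the change of Stab1 was 0.13 (adjusted p = 0.44) and that of Igsf6 -0.46 (adjusted p = 0.0852), and neither passed.

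Among genes of lipid handling and the lysosome, scavenger receptors and a lipase rose. Of 28 genes of lipid uptake, storage and efflux 2 rose and none fell, with a median of 0. Cd36, a receptor for fatty acids and oxidised lipoprotein, read 3.98 and 3.97 in control and 4.55 and 4.50 with isorhamnetin, a rise of 0.55 ± 0.0492 (adjusted p = 0.0203). Olr1, the oxidised LDL receptor LOX-1, went from -0.30 and -0.23 to 0.39 and 0.46, a rise of 0.69 (adjusted p = 0.0438). Rxra, the nuclear receptor that partners PPARs and LXRs, was named after its values were seen and rose by 0.74 (adjusted p = 0.0203).

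Of 45 measured lysosomal proteins 2 rose and none fell, with a median of -0.04. Lipa, the lysosomal acid lipase, read 4.08 and 4.11 in control and 4.97 and 4.88 with isorhamnetin, a rise of 0.83 ± 0.0545 (adjusted p = 0.014). Gpnmb, a glycoprotein of stressed lysosomes, rose by 0.54 (adjusted p = 0.046) and Ctsk, the bone matrix protease cathepsin K, by 0.50 (adjusted p = 0.0367). Ctsk was the called gene among 10 osteoclast-type genes, whose median was 0.16. After normexp Gpnmb had 0.18 (adjusted p = 0.571) and Ctsk 0.26 (adjusted p = 0.137). Sqstm1, the autophagy receptor p62, which also binds KEAP1, read 5.44 and 5.49 in control and 6.17 and 6.29 with isorhamnetin, a rise of 0.76 ± 0.066 (adjusted p = 0.0192). It was the called gene among 32 autophagy and MiT/TFE genes, whose median was -0.01, and Gabarap, of the autophagosome membrane, differed by -0.10.

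Of 29 genes of glycolysis and hypoxia 1 fell, with a median of -0.14: Ankrd37, a hypoxia-induced ankyrin protein, at 2.35 and 2.29 in control and 1.81 and 1.74 with isorhamnetin (adjusted p = 0.0487). Ldha, lactate dehydrogenase A, differed by -0.14 (adjusted p = 0.604). No gene passed among 25 of cholesterol synthesis, 4 of the aryl hydrocarbon receptor, 12 metallothionein and zinc, 16 HSF1 and chaperone, 20 endoplasmic reticulum, 31 proteasome, 24 DNA replication, 20 mitosis, 24 cell cycle and p53, 16 proton pump and 12 macrophage identity genes. Their medians ran from -0.07 to 0. In these lists Tiparp, a direct target of the aryl hydrocarbon receptor, differed by -0.07, Hspa8, a cytosolic chaperone, by -0.16, and Mki67, a marker of cycling cells, by -0.09.

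**Figure D4:**
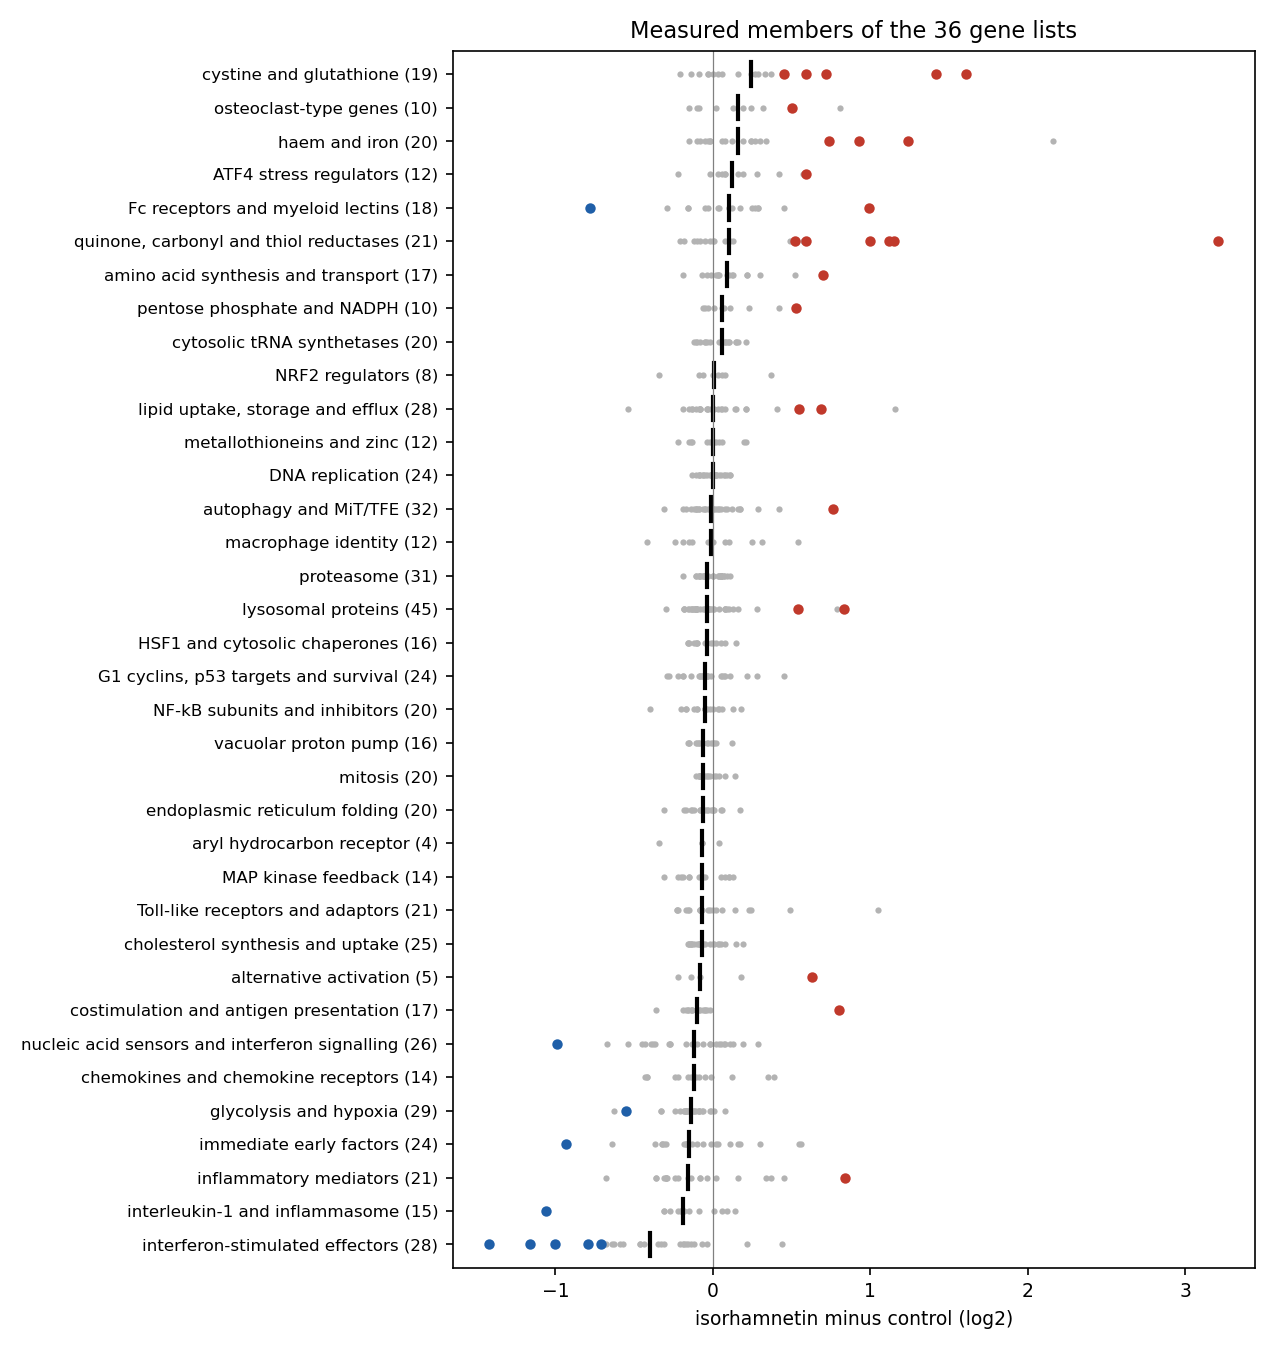
Each dot is a measured gene of 1 of 36 lists, at isorhamnetin minus control (log2), with red for genes called higher, blue for genes called lower, grey for the rest and a black bar for the list median; the number of measured genes follows each name. The medians run from 0.24 for cystine and glutathione to -0.40 for interferon-stimulated effectors.

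Several called genes with a large change belonged to none of the lists. Ppfibp2, a liprin scaffold protein, read -1.14 and -1.07 in control and 0.01 and -0.01 with isorhamnetin, a rise of 1.11 ± 0.0603 (adjusted p = 0.0106), while a second, dimmer probe gave 0.68. Layn, the hyaluronan receptor layilin, went from -0.09 and -0.03 to 1.07 and 0.93, a rise of 1.06 (adjusted p = 0.014). Mfap3l rose by 1.04, Glipr1 by 0.95 and Dtx4, a Deltex ubiquitin ligase of the Notch pathway, by 0.90. Slc39a4, the zinc importer ZIP4, rose by 0.82 (adjusted p = 0.0372) and Slc6a8, the creatine transporter, by 0.79 (adjusted p = 0.014), where a second, dimmer probe gave 0.41. Of the genes that fell, Eps8, an adaptor that caps actin filaments, lost 0.58 (adjusted p = 0.0223) and Slc9a3r2, a PDZ scaffold of membrane transporters, 0.45 (adjusted p = 0.0334). After normexp Slc9a3r2 had -0.40 and did not pass (adjusted p = 0.0735). Cyb5a, a haem-binding electron carrier named after its values were seen, rose by 0.47 (adjusted p = 0.0428). Altogether 83 called genes had a symbol, 63 higher and 20 lower, and 36 called genes had none.

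The largest fitted differences belonged to dim probes. Of the 119 called genes, 18 were not well above background on either control array and 4 on neither isorhamnetin array. A lower bound on the fold could be given for 19 of these 22. The bounds refer to the deposited processed signal and not to other background corrections. The filter kept 16 of the 22 only through the group where they are high, Treml4, Defb22, Rflnb and Septin14 among them, so that their adjusted p-values are given as a description and support no change. Treml4, a receptor of the TREM family, read -5.78 and -5.03 in control and -1.61 and -1.52 with isorhamnetin and was at least 5.13-fold higher (adjusted p = 0.014). Defb22, a beta-defensin, read -6.02 and -5.96 in control and -2.09 and -1.15 with isorhamnetin and was at least 4.94-fold higher (adjusted p = 0.014). Its spot lay in row 382 and column 9, at the edge of the array, and the called probe of the neighbouring spot, for the transcript AV173286 in row 383 of the same column, read -3.34 and -3.48 in control and -1.70 and -1.17 with isorhamnetin. The part of the position in these values was not tested. Rflnb and Chrnb2, the latter a nicotinic receptor subunit, were at least 1.78-fold and 1.67-fold higher (adjusted p = 0.0492 and 0.0334), and Il7r, the interleukin-7 receptor named after its values were seen, at least 1.47-fold (adjusted p = 0.0162).

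Septin14, of the septin family of filament-forming GTPases, was well above background in control, at -2.52 and -1.79, and was not well above background with isorhamnetin, at -6.25 and -6.18, so that it was at least 4.70-fold lower (adjusted p = 0.014). It was likewise dim with tamarixetin (-5.20 and -5.20) and with Torin1 (-5.43 and -5.76), so the 2 control arrays stood apart from the other 6. Its spot lay in row 384, and 2 further probes called lower and dim with isorhamnetin, those of XR_405542 and AI509003, lay in rows 382 and 378. Defb22 and Septin14 have no value once the outer 10 rows and columns of spots are left out. Normexp background correction, run with an offset of 50, brought each of these dim genes below its bound. Treml4 had 0.98 and stayed called, but it was kept by the same filter, so this call too supports no change. Defb22 (1.01, adjusted p = 0.0511), Rflnb (0.10), Chrnb2 (0.05), Il7r (0.05) and Septin14 (-0.82, adjusted p = 0.0539) did not pass. The bounds thus hold only for the deposited background subtraction.

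The isomer tamarixetin, at the same dose and time, was set against isorhamnetin in a direct test of these 2 groups, 1 pair in all. Isorhamnetin lay in row 1 of the slide and tamarixetin in row 2. A difference between the compounds and one between the slide rows therefore cannot be told apart. Isorhamnetin and tamarixetin differed at 169 of the 21528 genes, 0.785%. This count was 45 without either control array, 40 and 45 without isorhamnetin replicates 1 and 2, 238 and 266 without tamarixetin replicates 1 and 2, and 65 without either Torin1 array. Of the 119 genes called against control, 76 also differed from tamarixetin in the same direction. Among them were 55 of the 63 genes with a symbol that rose and 9 of the 20 that fell. Both comparisons use the same 2 isorhamnetin arrays, by which these genes were chosen, so part of this overlap is built in. The comparisons with control share the 2 control arrays, so tamarixetin minus control, in which 17 genes or 0.079% passed, is given only beside the direct test. Slc7a11 read -0.31 on both tamarixetin arrays, close to control, and isorhamnetin exceeded tamarixetin by 1.68 ± 0.0574 (95% interval 1.53 to 1.82, adjusted p = 0.00226). Gclm read 3.96 and 3.97 with tamarixetin, 1.35 below isorhamnetin (95% interval 1.21 to 1.48, adjusted p = 0.00246). Hmox1 read 5.56 and 5.27 with tamarixetin, 1.30 below (95% interval 1.03 to 1.56, adjusted p = 0.0145).

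There were 14 called antioxidant, haem and NADPH genes well above background on the 4 control and isorhamnetin arrays. All of them differed between the isomers in the direct test, with adjusted p up to 0.0279. They were chosen by high isorhamnetin arrays that the direct test uses again, so the full count is no independent evidence. Over the lists, 6 of 19 cystine and glutathione genes and 3 of 20 haem and iron genes were higher with isorhamnetin than with tamarixetin. So were 7 of 21 genes of the reductase list, Nqo1 included. Over all genes the share was 0.534%. Cat differed by 0.92 (adjusted p = 0.0165), Txnrd1 by 0.59 (adjusted p = 0.0165) and Pgd by 0.57 (adjusted p = 0.0184). The medians of tamarixetin minus control in these 3 lists were -0.04, -0.05 and -0.04.

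Of the interferon effectors 4 of 28 were lower with isorhamnetin than with tamarixetin, against 0.251% of all genes, while the tamarixetin minus control median was -0.11. Usp18 read 0.81 and 0.63 with tamarixetin, between the isorhamnetin and control arrays, and differed from isorhamnetin by -0.93 (95% interval -1.19 to -0.66, adjusted p = 0.0348). Rtp4, Ifi204, Parp14 and Ddx58 also passed, Parp14 at adjusted p = 0.0499. Oas3 (-0.62, 95% interval -0.84 to -0.40), Irgm2 (-0.59), Isg15 (-0.44) and Apol9a (-0.40) did not pass (adjusted p = 0.0627, 0.0646, 0.126 and 0.113), which does not show that the isomers act alike on them.

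Il1b read 2.00 and 1.87 with tamarixetin and was lower with isorhamnetin by 0.62 (95% interval of the difference -0.81 to -0.42, adjusted p = 0.0451), and Egr1 by 0.85 (adjusted p = 0.0369). Ptgs2, Cd274, Clec4n, Mpeg1, Cd36, Olr1 and Lipa were each higher with isorhamnetin, from 0.48 for Cd36 (adjusted p = 0.0262) to 1.48 for Clec4n (adjusted p = 0.00486). Syk (-0.22, adjusted p = 0.168), Scimp (-0.33, adjusted p = 0.151), Igsf6 (-0.36, adjusted p = 0.0735) and Fcgr4 (-0.55, adjusted p = 0.0883) did not pass the direct test.

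Torin1, given at another dose, is set beside these values without a direct test. Torin1 minus control was 0.04 for Slc7a11, -0.64 for Gclm, -0.89 for Srxn1 and 0.43 for Hmox1. For the interferon group it was -0.34 for Usp18, -1.74 for Rtp4 and -1.24 for Ddx58, with a list median of -0.48. For Atf3, Gpnmb and Ctsk it was 4.04, 5.84 and 4.45, far above the 0.59, 0.54 and 0.50 of isorhamnetin. Trib3 had -3.81 and Ddit4 -5.40 with Torin1, and 0.57 and 0.08 with isorhamnetin. With Torin1, Il1b and Egr1 had -2.66 and -1.93, and Cd274 and Mpeg1 had 2.01 and 3.86, the direction of isorhamnetin. Ptgs2 with -0.95 and Syk with 1.04 had the opposite direction.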

How the data were processed

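Per the file headers, the authors' software for all 8 single-channel arrays was Agilent Feature Extraction 10.7.1.1, and the deposited processed signal is an intensity after background subtraction. The authors' deposited series values are log2 and equal the log2 signal minus the 75th percentile of the array and the median of the probe, within 0.01 for 99.9% of 56605 probes.

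Outlier spots were dropped, which left out 323 probes, and spots of a probe were averaged. Probes well above background on both arrays of a group were kept (27562), and the brightest represented its gene, with symbols from RefSeq accessions (GRCm38.p6, against an older build in the headers). The 75th percentile was subtracted from log2 signals. limma 3.58.1 in R 4.3.3 (with the package data.table, version 1.17.8) fitted a mean per group over 8 arrays (4 residual degrees of freedom), with two-sided Benjamini-Hochberg adjusted p over 21528 genes, and was tested on simulated data. P-values measure the spread between these samples only, and the number of arrays limits the precision.

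Named genes were the 20 called genes with the largest change in each direction among those above background on all 4 arrays, up to 5 bounds per direction, up to 6 called and the 3 highest members of each list, and a panel. In a bound, the dim group counts at the lowest signal called well above background or its own, whichever is higher. The members, lists, rule and panel were chosen with earlier results of these data known. Deviations of same-numbered control and isorhamnetin arrays correlated at -0.06 over genes, so no general pairing by replicate number was seen. Such a correlation cannot exclude a pairing that acts on a few genes. Alternatives were scale, background correction, dim-probe filter, probe choice, arrays fitted, replicate block, variance model, array edges and leaving out each array.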

Additional observations from a re-analysis of the deposited data

How the results depend on the processing

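Of the 62 called genes named by symbol, 46 were measured in each of the 12 settings that keep all arrays of a comparison. The 11 at the edge of the array (Gclm, Srxn1, Gsr, Pgd, Rtp4, Parp14, Cd36, Clec4b1, Cyb5a, Defb22 and Septin14) had no value without the outer spots, and 7 dim genes, Defb22 and Septin14 again among them, had none above background on all 4 arrays. The 62 kept their direction in the settings that measured them, and 2, Slc7a11 and Gclm, passed in every fit that left out 1 array. The number of genes called against control (119, of them 92 higher and 27 lower) was 13 (10 higher, 3 lower) with arrays centred on the median, where the median of all genes was -0.06, and 6 (4 higher, 2 lower) with no filter on dim probes. It was 432 (278 higher, 154 lower) with a trended, robust variance, 101 of them among the 119. It was 0 (0 higher, 0 lower) in the limma fit of only 2 groups, where 3138 genes had an unadjusted p under 0.05. With the replicate block it was 4 (3 higher, 1 lower). With the block in the 2-group fit it was 0 (0 higher, 0 lower), with 2349 at unadjusted p under 0.05. Whether the replicate numbers pair samples is not known. Leaving out 1 array gave from 5 to 71 calls, from 4 to 57 higher and from 1 to 14 lower. Other settings stayed within 1.5 times in total: quantile normalization gave 147 (108 higher, 39 lower), normexp 87 (66 higher, 21 lower), the authors' values 117, probes above background on all 4 arrays 143, the mean of a gene's probes 110, and spots away from the edges 94. After normexp 15 of the 62 were not called, 9 of them well above background on all 4 arrays: Abcc1, Apol9a, Ctsk, Gpnmb, Igsf6, Parp14, Slc9a3r2, Stab1 and Syk. The count against tamarixetin (169) was 38 with the replicate block, 94 after normexp, 255 with a trended, robust variance, 92 without the outer spots, and from 40 to 266 when 1 array was left out. Without a filter 13991 genes differed between isorhamnetin and tamarixetin, which lie in different slide rows, so dim probes and slide position limit that comparison. Signs turned for 3 uncalled genes: Fth1 had 0.08 after quantile normalization, and from -0.24 to 0.07 when 1 array was left out, with 0.01 without control replicate 2. Bach1 had -0.02 with arrays centred on the median and 0.00 without control replicate 2, and Atf4 -0.03 with arrays centred on the median and from -0.03 to 0.09 when 1 array was left out. The cause was not tested.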
